A study of Mus musculus with 3 samples.

Results

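The centromere-proximal ends of the mouse autosomes were taken as the 10 kb bins of chromosomes 1 to 19 whose start lies below 8 Mb. The bins were chosen by position alone, with no measured value used, and number 9426 of the 264399 bins in the deposited table, or 3.94% of its 239486 autosomal bins. Mouse autosomes carry the centromere at the low-coordinate end of the assembly, so these bins are the first assembled sequence next to it. The table lists no bin before position 3000001, and the first listed bin starts there on 13 chromosomes, at 3050001 on chromosomes 2, 4, 6 and 15 and at 3100001 on chromosomes 10 and 11. Within the stretch a further 34 bins are not listed, 13 of them on chromosome 19, 6 on chromosome 10, 4 each on chromosomes 7, 16 and 17, and 3 on chromosome 14.

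The stretch next to a mouse centromere borders satellite DNA and often holds segmental duplications and tandem gene families. 5-Hydroxymethylcytosine (5hmC) is formed when TET enzymes oxidise 5-methylcytosine. In brain it is known for its abundance in neurons, where it lies over the bodies of expressed genes and is low at CpG-rich promoters.

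The 3 libraries were each made from mouse cerebellum, with 1 library per group. The DDD-seq control is labelled normal, the sleep-deprived library was made by DDD-seq after chronic sleep deprivation, and the ACE-seq library carries the control label for treatment. DDD-seq and ACE-seq both protect glycosylated 5hmC from a deaminase and read the cytosines that remain. Strain, age and the number of animals are not given in the sources used here, and the headers of both DDD-seq columns may stand for pooled runs. The deposited values are fractions, given here as levels in percent, without read counts, so their depth is unknown. Bins and chromosomes of 1 library are not replicates of a condition. Errors over bins or chromosomes measure scatter along the genome, no test between libraries was possible, and values are set side by side in the order DDD-seq control, sleep-deprived, ACE-seq control.

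4 promoter sequences are given as examples from these ends. Of these, 2 are from long genes of high level and 2 from a duplicated stretch of chromosome 14 where many bins were listed at 0. They are RefSeq sequences of GRCm38.p6, from 250 bases before to 50 bases after a transcription start, printed 5′ to 3′ on the gene's strand with every CG dinucleotide in capitals. The Gria4 promoter (chr9:4796185-4796484, minus strand) holds 17 CG dinucleotides, and the Celf2 promoter (chr2:6871986-6872285, minus strand), one of several starts and inside the span of the gene, holds 48. The Gm2977 promoter (chr14:3503766-3504065, plus strand) and the Gm8246 promoter (chr14:5477781-5478080, minus strand) hold 2 each.
Gria4: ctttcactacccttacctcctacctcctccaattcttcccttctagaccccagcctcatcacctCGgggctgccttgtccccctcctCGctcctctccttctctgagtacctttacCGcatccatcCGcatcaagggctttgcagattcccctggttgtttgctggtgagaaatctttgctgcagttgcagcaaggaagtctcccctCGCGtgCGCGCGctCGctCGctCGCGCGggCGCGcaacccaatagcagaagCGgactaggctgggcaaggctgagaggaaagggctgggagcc
Celf2: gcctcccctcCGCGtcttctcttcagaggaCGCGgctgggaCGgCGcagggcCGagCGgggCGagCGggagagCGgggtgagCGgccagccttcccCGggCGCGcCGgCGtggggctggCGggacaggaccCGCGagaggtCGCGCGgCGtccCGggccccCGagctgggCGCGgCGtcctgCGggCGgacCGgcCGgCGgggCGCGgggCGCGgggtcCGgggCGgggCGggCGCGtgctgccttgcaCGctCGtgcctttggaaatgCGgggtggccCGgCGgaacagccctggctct
Gm2977: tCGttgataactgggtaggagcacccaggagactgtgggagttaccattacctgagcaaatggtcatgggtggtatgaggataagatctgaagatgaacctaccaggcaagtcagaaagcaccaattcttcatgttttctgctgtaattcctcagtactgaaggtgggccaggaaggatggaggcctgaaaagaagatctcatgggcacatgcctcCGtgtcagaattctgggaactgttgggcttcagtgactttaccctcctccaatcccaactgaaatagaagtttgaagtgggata
Gm8246: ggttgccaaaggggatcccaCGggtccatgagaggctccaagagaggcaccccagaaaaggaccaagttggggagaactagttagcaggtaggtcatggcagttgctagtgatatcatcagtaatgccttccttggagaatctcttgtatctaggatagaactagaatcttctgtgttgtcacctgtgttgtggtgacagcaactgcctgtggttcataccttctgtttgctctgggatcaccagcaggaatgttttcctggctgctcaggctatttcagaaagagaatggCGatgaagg
The Gm2977 sequence is identical, base for base, to the promoter of Gm3050 at a distance of 239393 bp, and the Gm8246 sequence to that of Gm3424 at 352492 bp. The search was for the letters CG, which are their own complement on the other strand. Of 32851 promoters of this length in the table, 94.6% hold at least 1 CG, and 34.6% hold at least 15, the number used here to call a promoter CpG-rich.

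The level of the centromere-proximal bins was slightly below that of the remaining autosomal bins. The mean was 1.50%, 1.50% and 1.45% in the ends against 1.56%, 1.57% and 1.52% in the other 230060 bins. The differences of -0.0611, -0.0711 and -0.0737 percentage points were smaller than the scatter of the same difference between chromosomes, whose SD was 0.165, 0.181 and 0.179 points over 19 chromosomes. The medians were 1.31%, 1.32% and 1.28% in the ends and 1.39%, 1.38% and 1.35% elsewhere. The end was lower than the rest of its own chromosome on 13, 12 and 13 of 19 chromosomes. The next 5 Mb of each chromosome, which are not members, were lower than the remainder on 12 chromosomes in each library, and the distal 5 Mb on 13, 12 and 13. These counts were near that of the ends.

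The ends differed widely from chromosome to chromosome. In the DDD-seq control the proximal mean ranged from 1.07% on chromosome 7 to 1.87% on chromosome 2, with an SD of 0.200 points over chromosomes, whereas the rest of the chromosomes ranged from 1.38% to 1.70% with an SD of 0.0707. The ends are far shorter stretches, so a wider scatter of their means is not a comparison of like with like. The end of chromosome 2 had levels of 1.87%, 1.86% and 1.77%, and that of chromosome 16 had 1.85%, 1.94% and 1.83%. The end of chromosome 7 had 1.07%, 1.11% and 1.07%, and that of chromosome 3 had 1.27%, 1.29% and 1.25%. The ends of chromosomes 2, 10 and 16 had the 3 highest means and that of chromosome 7 the lowest in each library, while the order among the highest varied. Of the 19 ends, 12 were below the rest of their chromosome in all 3 libraries and 6 were above it in all 3, namely those of chromosomes 2, 10, 11, 12, 16 and 17. On chromosome 9 the sign was mixed. By the median over bins, the sleep-deprived value of chromosome 16 fell just below the rest (-0.0028 points).

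**Figure D1:**
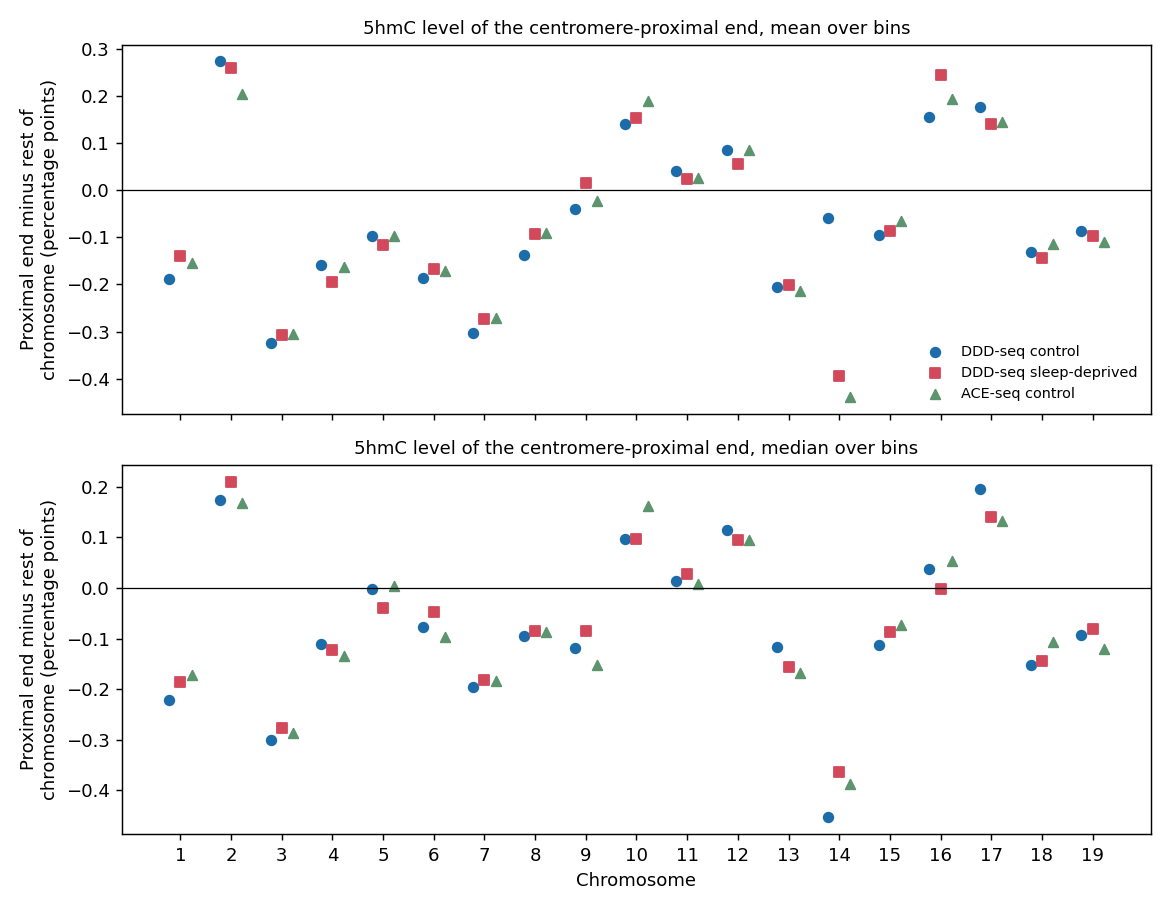
Level of the centromere-proximal end minus that of the rest of the same chromosome (percentage points) for chromosomes 1 to 19, with the mean over bins above and the median below; each point is 1 library. The ends of chromosomes 2, 10, 12 and 17 lie above 0 and those of chromosomes 3 and 7 below 0 in every library in both panels, while the DDD-seq control of chromosome 14 is -0.060 by the mean and -0.454 by the median.

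Protein-coding genes covered 43.3% of the proximal bins, compared with 46.9% of the rest and 52.8% of the distal 5 Mb. Proximal bins that overlapped a gene had mean levels of 1.81%, 1.76% and 1.72%, against 1.76%, 1.76% and 1.72% for genic bins elsewhere. Bins without a gene had 1.27%, 1.30% and 1.24%, against 1.39%, 1.40% and 1.35% elsewhere. Intergenic bins were thus lower in the ends in each library, and over genic bins alone the difference from the rest was 0.0506, -0.00116 and 0.00646 points. Without chromosome 14 it was 0.0418, 0.0422 and 0.0497 points. By the median, genic bins of the ends were slightly lower in each library. They had 1.481%, 1.468% and 1.446%, against 1.489%, 1.479% and 1.451% for genic bins elsewhere. Bins inside genes of at least 100 kb made up 21.1% of the ends and had the highest levels, 2.03%, 2.03% and 1.99%, compared with 1.96%, 1.96% and 1.91% for such bins elsewhere. Bins with shorter genes only had means of 1.60%, 1.50% and 1.46%, against 1.52%, 1.52% and 1.48% elsewhere, and medians of 1.30%, 1.32% and 1.28%, against 1.34%, 1.33% and 1.31%.

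Across the 19 ends, the share of bins inside genes of at least 100 kb followed the level closely. Pearson's r was 0.813, 0.830 and 0.825 and Spearman's rho 0.772, 0.833 and 0.816, as a description over 19 chromosomes of the same library. The share was 48.1% on chromosome 2, which holds Celf2, and 37.1% on chromosome 16, which holds Rbfox1. It was 4.84% on chromosome 7 and 0% on chromosome 13. The share of bins with any gene followed the level less closely, with an r of 0.50, 0.405 and 0.383 and a rho of 0.616, 0.423 and 0.363. With the median level of each end, r was 0.723, 0.772 and 0.785 for long genes and 0.328, 0.402 and 0.370 for any gene. Chromosome 7 had genes in 54.2% of its proximal bins, and chromosome 19 in 77.4%, the highest share of all, with levels of 1.42%, 1.41% and 1.34% there.

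Bins of 10 kb that hold a promoter were at a lower mean level than genic bins without one, and the 300-base promoters themselves were not resolved. In the ends, 353 bins that hold a CpG-rich promoter had mean levels of 1.37%, 1.35% and 1.40%, while 3311 genic bins without any promoter had 1.88%, 1.86% and 1.80%. The corresponding means elsewhere were 1.41%, 1.38% and 1.40% for CpG-rich promoter bins and 1.83%, 1.83% and 1.78% for genic bins without a promoter. The 593 proximal bins with CpG-poor promoters only had 1.51%, 1.32% and 1.32%, against 1.40%, 1.41% and 1.37% elsewhere. A lower mean was thus not particular to CpG-rich promoters. The SD of these 593 bins was 4.13, 0.67 and 0.71 points. Their medians were 1.23%, 1.24% and 1.22%, against 1.30%, 1.29% and 1.25% elsewhere. The Gria4 promoter printed above lies in a bin at 1.45%, 2.10% and 3.30%, next to a bin of the gene body (chromosome 9, 4780001 to 4790000) at 7.05%, 8.24% and 8.65%. The Celf2 promoter lies in a bin at 1.76%, 1.38% and 1.32%.

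Along the stretch, the level was lowest next to the unlisted chromosome start. The first 10 listed bins of each chromosome, 190 in all, had means of 1.01%, 1.23% and 1.06% and medians of 0.990%, 1.03% and 1.04%. They were below the rest of their chromosome on 19, 18 and 18 chromosomes. The next 40 listed bins had means of 1.38%, 1.39% and 1.35%. The sleep-deprived mean of the first 10 bins was raised by chromosome 16, where it was 3.99% through a bin at 25.0%, compared with 0.476% and 0.821% in the controls. By megabase, the mean in the DDD-seq control was 1.41% from 3 to 4 Mb, 1.49% from 4 to 5 Mb, 1.54% from 5 to 6 Mb, 1.61% from 6 to 7 Mb and 1.47% from 7 to 8 Mb. Outside the stretch, 15 to 16 Mb had means of 1.39%, 1.37% and 1.32%, below the 1.41%, 1.39% and 1.33% of 3 to 4 Mb. No other megabase from 8 to 20 Mb was below 3 to 4 Mb in all 3 libraries. A low megabase was thus not particular to the ends. At the 8 Mb limit, the last 100 kb inside had means of 1.49%, 1.48% and 1.45%, and the first 100 kb outside 1.38%, 1.38% and 1.29%.

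**Figure D2:**
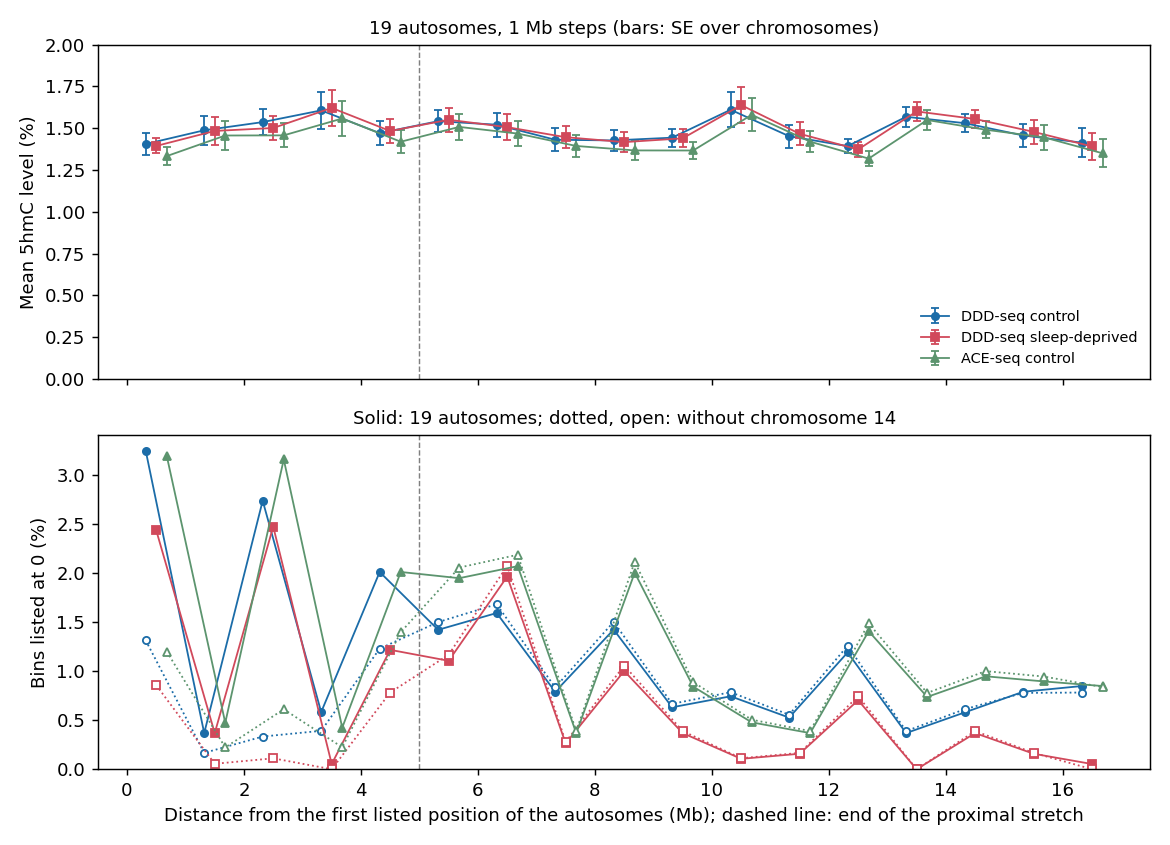
Mean 5hmC level (percent, upper panel) and share of bins listed at 0 (percent, lower panel) by distance from the first listed position in 1 Mb steps, for 3 libraries drawn slightly apart; bars are the SE over 19 chromosomes, open symbols leave out chromosome 14, and the dashed line is the end of the stretch. In the DDD-seq control the first step is at 1.41%, and its share of zeros falls from 3.25% to 1.31% without chromosome 14.

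Values of 0 were more frequent in the ends than in the rest, and chromosome 14 held most of them. A value of 0 was listed for 168, 123 and 174 proximal bins, or 1.78%, 1.30% and 1.85%, against 0.611%, 0.373% and 0.675% of the rest. The next 5 Mb, which belong to that rest, had 1.17%, 0.939% and 1.45%. Of these bins, 107, 91 and 109 lay on chromosome 14, where they made up 21.5%, 18.3% and 21.9% of 497 bins. Without chromosome 14 the share in the ends was 0.683%, 0.358% and 0.728%, close to the 0.601%, 0.371% and 0.666% of the rest without it. The share of zeros was above that of the rest on 8, 9 and 10 of 19 chromosomes. Chromosome 7 came next in number, with 23, 14 and 21 bins at 0. In all, 65 proximal bins were at 0 in all 3 libraries, 52 of them on chromosome 14. Without read counts a 0 cannot be told apart from a bin with few reads.

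Bins without a value were few, at 8, 3 and 9 in the ends. Chromosome 14 held 6, 3 and 5 of them. Without chromosome 14 the share fell from 0.0849%, 0.0318% and 0.0955% to 0.0224%, 0% and 0.0448%, where the rest of the autosomes, also without it, had 0.0513%, 0.0298% and 0.0389%.

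Many of the zeros lay close together. Taking 100 kb windows with at least 30% of values at 0, a limit chosen after the values were seen, 17 windows in 6 runs were found. On chromosome 14 these ran from 3300001 to 3800000, from 5100001 to 5800000 and from 7100001 to 7200000. The others were at 7800001 to 8000000 on chromosome 7 and at 3000001 to 3100000 on chromosomes 16 and 19. The 17 windows held 166 bins and 61.3%, 76.4% and 59.8% of the zeros of the ends, and 13 of the 14 bins that lacked a value in some library. These shares follow in part from the choice of windows by their zeros, and 38.7%, 23.6% and 40.2% of the zeros lay outside them.

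**Figure D3:**
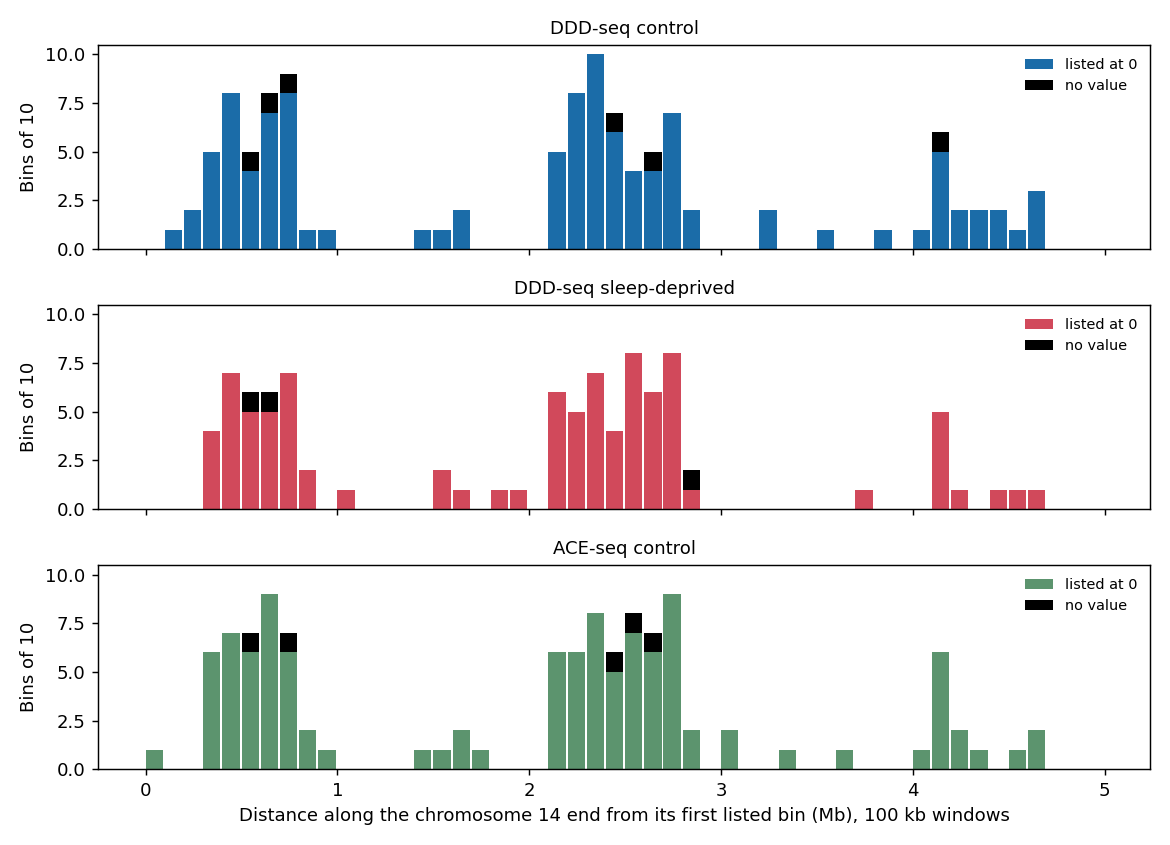
Bins listed at 0 (coloured) and bins without a value (black) in each 100 kb window of 10 bins along the end of chromosome 14, by distance from its first listed bin (Mb), with 1 panel per library. A block of 500 kb, another of 700 kb and a narrower one of 100 kb hold most of the zeros in all 3 libraries.

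The chromosome 14 end holds many repeated gene copies. Of its 80 protein-coding genes in the RefSeq table, 71 have a predicted-gene symbol beginning with Gm, compared with 22 among the 783 genes of the other 18 ends. Several gene models recur with the same length, such as the pair Gm46462 and Gm46463 of 24477 bp and 9 models of 1220 bp. In this end 22.4% of 156 promoters were identical over all 300 bases to the promoter of another gene, against 0.718% in the other ends and 0.913% of autosomal promoters outside the ends. Where the bin of a promoter was at 0 in 2 or 3 libraries, 10 of 22 promoters (45.5%) had such a copy, and where the bin was above 0 in all 3 libraries, 16 of 1220 (1.31%) had one. Most of the promoters with a bin above 0 lie on the other ends, where copies are few. Within chromosome 14 such a copy was found for 25 of 50 promoters inside the windows rich in zeros and for 10 of 106 (9.43%) outside them. Promoters of alternative starts of 1 gene share sequence and are not independent. Among the 25 are several starts each of Gm2977 and Gm3050, whose bins were absent or lacked a value in both controls. Others belong to different genes that share 1 bin, such as Gm46464 and Gm26552. The sources used here do not say how the authors treated reads that match several copies, so values in these stretches are uncertain, and the part of the copies in the zeros was not tested.

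The copies did not always share a value. The bins of the Gm2977 and Gm3050 promoters printed above are both absent from the table, and the bins that follow each of them lacked a value in both controls and were at 0 in the sleep-deprived library. Gm8246 was at 0 in all 3 libraries, whereas the bin with the identical promoter of Gm3424 had 1.41%, 1.13% and 1.46%. Besides Gm8246, the predicted genes Gm10408, Gm3012 and Gm3043, all on chromosome 14, were at 0 in every bin and library. Gm32966, which spans 18 bins between the runs of zeros, had 1.10%, 1.11% and 1.18%.

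On chromosome 14 the mean of the DDD-seq control was raised by few bins. The proximal mean of this chromosome was 1.54%, 1.19% and 1.12%, and the median was 0.958%, 1.05% and 0.995%. Its 370 proximal bins outside the windows rich in zeros had medians of 1.05%, 1.16% and 1.11%. The rest of the chromosome had medians of 1.41%, 1.42% and 1.38%. In the DDD-seq control, bins 3540001 to 3550000 and 5500001 to 5510000 were each at 100%, and both were at 0 in the other libraries. In the sleep-deprived library, bin 3600001 to 3610000 was at 25.0% and at 0 in both controls. The highest ACE-seq value of the stretch, 14.3% in bin 3700001 to 3710000, was likewise at 0 in both DDD-seq libraries. No bin of the ends was above 20% in more than 1 library. Each of the values above 20% was thus seen in 1 library only.

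High levels shared by the libraries lay over named genes. A total of 44 bins were above 5% in all 3 libraries, 0.467% of the ends against 0.440% of the rest, and all 44 overlapped a protein-coding gene. The overlap with genes was not counted for such bins of the rest, so it is not a comparison with them. Chromosomes 9 and 10 held 8 each, chromosome 2 held 7 and chromosome 18 held 6. The highest was bin 6820001 to 6830000 of chromosome 2, inside Celf2, with 12.6%, 10.7% and 11.3%. Next came bin 7940001 to 7950000 of chromosome 10, in Tab2, with 9.37%, 9.02% and 10.6%. None of the 44 lay on chromosome 5, 6, 7, 8, 11, 13 or 14.

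Of 863 protein-coding genes that lie wholly in the ends, 221 spanned at least 5 bins. Their median level was 1.61%, 1.59% and 1.56%, against 1.53%, 1.53% and 1.48% for 6161 such genes elsewhere on the autosomes. A level above 3% in all 3 libraries was found for 10 of the 221 (4.52%), near the 4.37% elsewhere. The genes named next were the 15 highest and the 10 lowest of 206 with an established symbol, ranked in the DDD-seq control, so the levels in that library are a description of the choice.

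The highest levels were those of Pkia, Wac, Tab2 and Gria4. Pkia, which encodes an inhibitor of protein kinase A (chromosome 3, 7366604 to 7445366), had 5.25% ± 0.70, 4.60% ± 0.63 and 4.63% ± 0.80 (SE over 9 bins). Wac, which encodes an adaptor for histone H2B ubiquitination, had 4.93%, 4.97% and 4.93% over 7 bins. Tab2, an adaptor gene of TAK1 kinase signalling, had 4.47%, 4.66% and 4.79% over 6 bins. Gria4, which encodes an AMPA-type glutamate receptor subunit (chromosome 9, 4417893 to 4796234), had 4.38% ± 0.30, 4.49% ± 0.33 and 4.42% ± 0.30 over 39 bins. The values of Wac, Tab2 and Gria4 differed between libraries by less than the SE of each gene's mean, which measures spread within the gene. Paired over the same bins, Tab2 differed from the DDD-seq control by 0.18 ± 0.24 points (sleep-deprived) and 0.32 ± 0.22 points (ACE-seq).

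Below them came Plcxd3 (4.06%, 4.04% and 4.01%) and Epc1, a subunit gene of the NuA4 acetyltransferase (3.68%, 3.52% and 4.26%). Crebbp, which encodes a histone acetyltransferase, had 3.49%, 3.34% and 3.64%, and Kdm2a, which encodes a histone H3 lysine demethylase, had 3.39%, 2.99% and 3.03%. The kinesin gene Kif5b had 3.31% in the DDD-seq control, the vesicle GTPase gene Rab10 3.31%, the scaffold gene Cnksr3 3.30% and Scaf8, whose product binds RNA polymerase II, 3.17%. Syne1, which encodes the nuclear envelope protein nesprin-1, had 3.17%, 3.09% and 3.0% over 54 bins. Rtn3, a reticulon gene, had 3.10%, and Celf2, which encodes an RNA-binding splicing regulator, had 3.08%, 3.05% and 2.83% over 87 bins. Just outside the 15 were Mtmr3 with 3.01% and Rbfox1 with 2.95%. In the libraries not used for the ranking, the 15 genes lay between 2.84% and 4.97% (sleep-deprived) and between 2.83% and 4.93% (ACE-seq). All 15 were above their flanks of 100 kb in each library, and those flanks ranged from 1.13% to 1.86% in the DDD-seq control.

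Several of the 10 lowest genes are known from tissues other than brain. Mmp20, a protease of tooth enamel, had 0.812%, 0.949% and 1.07%. Nlrp2 had 0.842%, 0.738% and 0.924% and Nlrp4c 0.873%, 0.932% and 0.874%, both members of a family expressed in oocytes. Rp1, a photoreceptor gene, had 0.965%, 1.16% and 1.05% over 30 bins. The complement gene C7 had 1.02%, 1.35% and 1.29%, the meiotic gene Majin 1.02%, 1.44% and 1.07%, and Jcad, a gene of endothelial junctions, 0.95%, 1.24% and 1.46%. Pon3, Ptprh and Hnf4g had 1.0%, 1.03% and 1.03% in the DDD-seq control, and Hepacam2 and Cluap1 followed with 1.03% and 1.04%. All 10 were below the median of the 221 genes in each library, and Mmp20, Nlrp4c, Pon3 and Ptprh were also below their flanks in all 3.

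**Figure D4:**
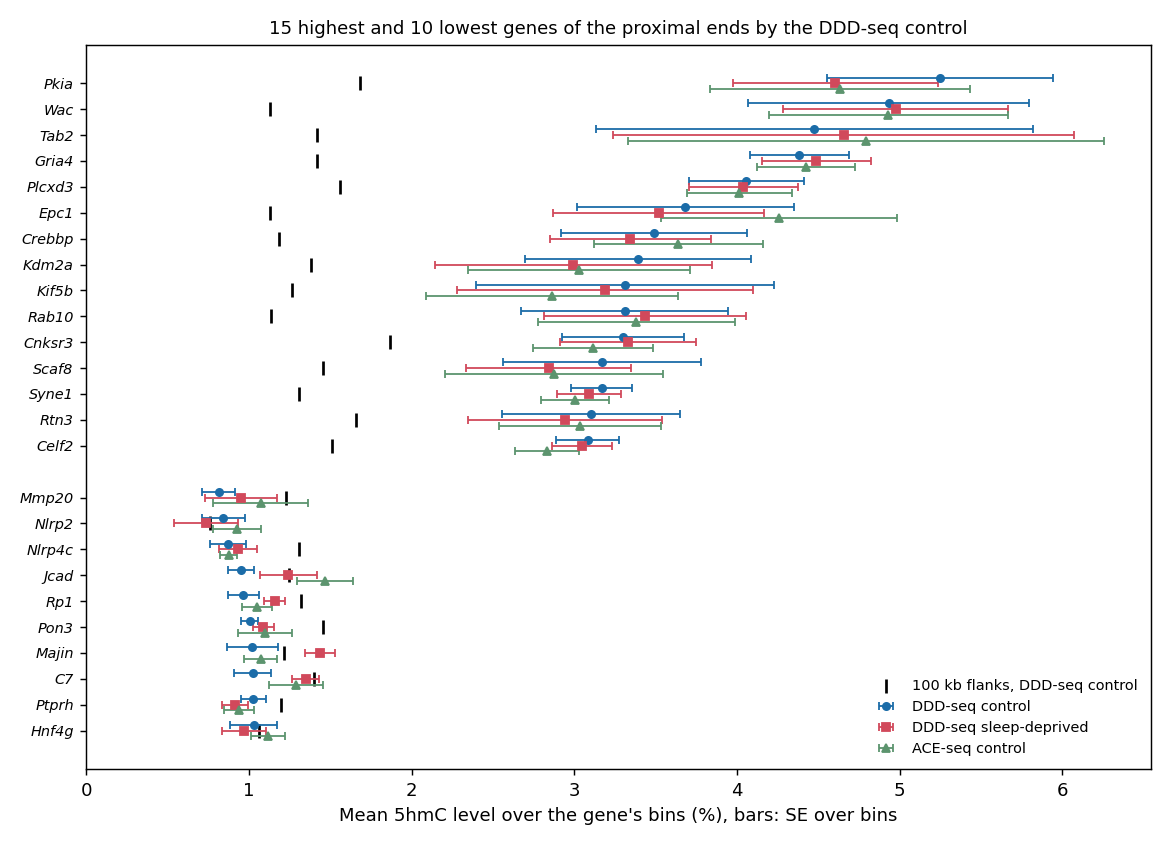
Mean 5hmC level (percent) of the 15 highest and 10 lowest genes of the ends, ranked in the DDD-seq control, with the SE over the bins of each gene; black ticks are the mean of the 100 kb flanks in the DDD-seq control. The 15 highest lie at 2.83% or more in every library, to the right of their flanks, and the 10 lowest at 1.46% or less.

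In Gria4, Celf2 and Rbfox1, 3 long genes of high level, the level varied within the gene. Gria4 was above 3% in 32, 27 and 31 of its 39 bins, while of 40 flanking bins 0, 0 and 1 were. The bins at its lower-coordinate end were lower, between 1.69% and 3.97% over the first 80 kb in the DDD-seq control, and the highest bins, 9.42%, 9.24% and 9.19%, were different ones in each library. Celf2 was above 3% in 31, 32 and 27 of 87 bins, most of them within 350 kb of its lower end. Rbfox1, which encodes a neuronal splicing factor (chromosome 16, 5884793 to 7412480), is the longest of the 3 and had 2.95% ± 0.08, 2.97% ± 0.08 and 2.85% ± 0.09 over 154 bins, with 73, 71 and 63 bins above 3%. No flanking bin of Rbfox1 reached 3%, the highest having 2.79%, 2.46% and 2.71%.

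**Figure D5:**
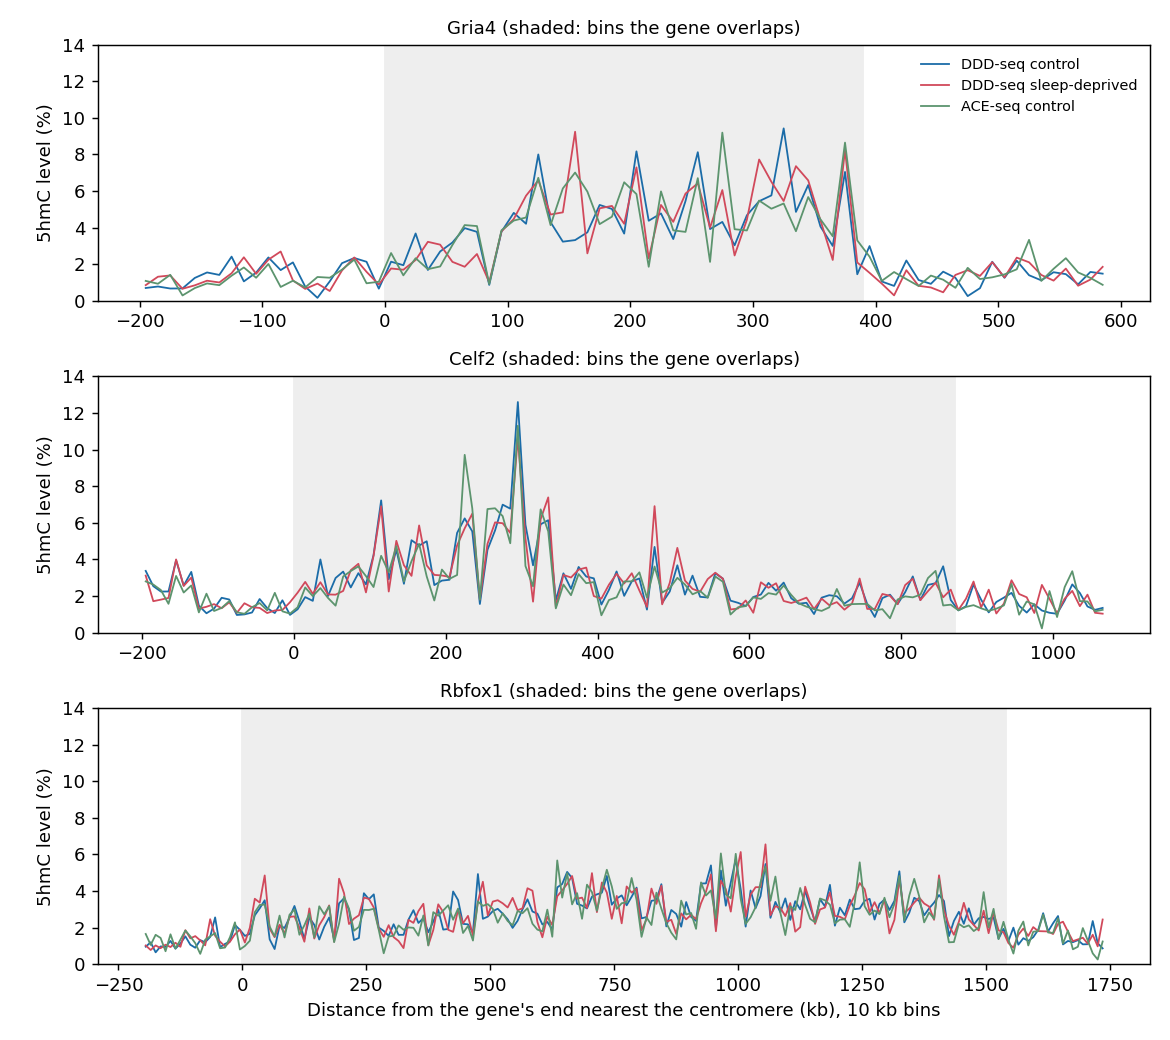
5hmC level (percent) of each 10 kb bin across Gria4, Celf2 and Rbfox1 and the 200 kb on either side, by distance from the gene end nearest the centromere (kb); shading marks bins the gene overlaps and lines are the 3 libraries. Levels rise inside the shaded span in every library, to 12.6% in Celf2.

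Over genes of any length, chromatin genes had the highest median of the gene lists, a comparison not matched for gene length. The lists were chosen with earlier results of these data known. All 863 genes of any length had a median of 1.29%, 1.28% and 1.27%. The 9 chromatin and DNA methylation genes of the ends had 2.20%, 2.12% and 2.36%, and the 7 of them with at least 5 bins had 2.27%, 2.20% and 2.50%, against 1.61%, 1.59% and 1.56% for the 221 genes of that size. Over genes of at least 5 bins the 2 housekeeping genes were higher in both DDD-seq libraries, with 2.63%, 2.69% and 2.46%. Crebbp and Kdm2a were at the top of the chromatin genes, Atad2b had 2.42%, 2.12% and 2.72%, and Dnmt3a, a DNA methyltransferase gene, had 1.63%, 1.46% and 1.42%. Among the chromatin genes, Kat5 had 1.07%, 1.14% and 1.57% and Men1 1.25%, 1.14% and 0.794%, each over 2 bins. The 3 adenylyl cyclase genes had a median of 1.80%, 1.70% and 1.94%. Of these Adcy1, a calcium-stimulated cyclase gene of neurons, had 2.50%, 2.40% and 2.54%, Adcy9 1.80%, 1.70% and 1.94%, and Adcy3 1.58%, 1.42% and 1.53%.

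The 37 neuronal and synaptic genes had a median of 1.49%, 1.57% and 1.56%, and 26 of them lay above the median of all 863 genes in the DDD-seq control. The 21 with at least 5 bins had 1.83%, 1.84% and 1.77%. The opioid receptor gene Oprm1 had 1.83%, 1.89% and 1.99%, the kinase subunit gene Camk2b 1.89%, 1.89% and 1.67%, and the neurexin gene Nrxn2 1.54%, 1.53% and 1.55%. The neuropeptide gene Pomc had 1.37%, 1.04% and 1.10% over 2 bins, and the tachykinin gene Tac1 0.510%, 1.49% and 1.58% over 2 bins. Of the 2 glial genes, St18, a zinc finger gene of oligodendrocytes, had 2.41%, 2.58% and 2.42%, and the transcription factor gene Sox17 had 1.04%, 0.939% and 0.983%.

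Growth and receptor signalling genes (16) had a median of 1.47%, 1.40% and 1.50%. Their highest member was Rictor, a subunit gene of mTOR complex 2, with 2.40%, 2.49% and 2.49%, and Esr1, the oestrogen receptor gene, was at 1.21%, 1.39% and 1.26% over 40 bins. The 12 imprinted genes had 1.39%, 1.47% and 1.21%, with Peg3 at 1.67%, 1.74% and 1.87%. The 17 complement, blood and immune genes had 1.24%, 1.25% and 1.30%, with the Src-family kinase gene Lyn highest at 2.63%, 2.07% and 2.26%. This list also holds matrix metalloproteinase genes of chromosome 9, among them Mmp20, so its median does not describe immune genes alone. The 3 homeobox and T-box genes had 0.905%, 1.01% and 0.901%. Of the 5 housekeeping genes, with a median of 1.84%, 1.69% and 1.46%, the cullin gene Cul2 had 1.96%, 2.20% and 2.06%.

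The vomeronasal and olfactory receptor families, mainly on chromosome 7, lay at the low end. The 23 vomeronasal receptor genes, 20 of them on chromosome 7, had a median of 0.914%, 0.919% and 1.03%, near the 0.987%, 0.976% and 0.943% of the 315 elsewhere. The 10 olfactory receptor genes had 0.841%, 1.04% and 0.963%, against 1.06%, 1.06% and 1.02% for 1091 elsewhere. The 3 Nlrp genes had 0.873%, 0.837% and 0.924%. The 25 zinc finger genes, 17 of them on chromosome 7, had 1.32%, 1.31% and 1.25%, and the 8 aldo-keto reductase genes of the Akr1c cluster on chromosome 13 had 1.07%, 1.02% and 0.829%. The 93 predicted genes, 71 of them on chromosome 14, had 1.21%, 1.13% and 1.20%. The 5 killer and leukocyte receptor genes, all on chromosome 7, had 0.766%, 1.18% and 1.28%, against 1.08%, 0.911% and 0.914% for 2 elsewhere. Their ACE-seq value was not below the 1.27% of all 863 genes. How reads that match several copies were treated is not given, so levels of any near-identical copies in such families are uncertain. On the chromosome 7 end 4 of 144 promoters (2.78%) were identical to that of another gene. Similarity over whole genes was not measured.

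Sleep deprivation was compared with control over 9416 proximal bins with a value in both DDD-seq libraries. The mean difference, sleep-deprived minus control, was -0.00395 points in the ends and 0.00474 points in the rest, with an SD of 0.0862 over 19 chromosomes, of which 10 were higher and 9 lower. The chromosome 14 end was at -0.336 points through the bins at 100% in the control, and without that chromosome the mean of the ends was 0.0142 points. The sign therefore rested on 1 chromosome. The level was at least 1 point higher in 497 bins (5.28%), where the share over all autosomal bins was 4.51%, and at least 1 point lower in 427 bins (4.53%), where it was 4.48%. Without chromosome 14 the counts were 430 and 379, or 4.82% and 4.25%, near the background in both directions.

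Among the 206 genes of at least 5 bins with an established symbol, the 5 with the largest difference between these libraries in each direction are given as a description. Pkia was lower by 0.64 ± 0.43 points (SE over 9 bins), Lyn by 0.56 ± 0.16, Rgs17, a regulator gene of G-protein signalling, by 0.51 ± 0.17, Akr1c20 by 0.49 ± 0.14, and Eif4enif1, which encodes a binding partner of the translation factor eIF4E, by 0.47 ± 0.32. Zc2hc1a was higher by 0.54 ± 0.32 points, Elavl1, an RNA-binding protein gene, by 0.48 ± 0.43, Asxl2, a Polycomb-associated gene, by 0.47 ± 0.21, Majin by 0.42 ± 0.16 and Rb1cc1, an autophagy gene, by 0.35 ± 0.28. Of the 221 genes, 3 were at least 0.5 points higher (1.36%), where the share over all 6382 autosomal genes of 5 bins or more was 0.736%. They were Zc2hc1a and the predicted genes Gm3050 and Gm29721. At least 0.5 points lower were 5 genes (2.26%), with a background of 1.03%, namely Pkia, Lyn, Rgs17, Gm10410 and Gm31035. Gm3050, Gm10410 and Gm31035 are on chromosome 14, and the predicted genes are named because the counts hold them.

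Lyn shows the data behind such a difference. It had 2.63% ± 0.31, 2.07% ± 0.25 and 2.26% ± 0.20 over 13 bins, so that both other libraries lay below the DDD-seq control. Pkia followed the same order of values, with 5.25%, 4.60% and 4.63%. Both comparisons use the same DDD-seq control.

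The ACE-seq control was lower than the DDD-seq control over the ends and the rest alike. Over 9414 proximal bins the mean difference was -0.0566 points, against -0.0435 in the rest, and 18 of 19 ends were lower, chromosome 10 being the exception at 0.0084 points. The chromosome 14 end was at -0.415 points, and without it the mean was -0.0369. The level was at least 1 point higher in 498 bins (5.29%), with a background of 4.8%, and at least 1 point lower in 587 bins (6.24%), with a background of 6.06%. Among the same 206 genes, Akr1c20 was lower by 0.75 ± 0.26 points, Pkia by 0.61 ± 0.44, Kif5b by 0.45 ± 0.38, Zc3h12d by 0.45 and Lyn by 0.37. Zc2hc1a was higher by 0.92 ± 0.58 points, Epc1 by 0.58 ± 0.24, Pcmtd1 by 0.55, Jcad by 0.52 ± 0.15 and Morc2a by 0.43. At least 0.5 points higher were 5 of 221 genes (2.26%), with a background of 0.909%, namely Zc2hc1a, Epc1, Pcmtd1, Jcad and the predicted gene Gm21103. At least 0.5 points lower were 3 (1.36%), with a background of 1.47%, namely Pkia, Akr1c20 and Gm10410.

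Bin by bin, the libraries ranked the proximal bins in a similar way. Spearman's rho was 0.490 between the DDD-seq libraries over 9416 bins, 0.474 between the controls and 0.479 between the sleep-deprived and ACE-seq libraries, compared with 0.523, 0.491 and 0.505 in the rest of the autosomes. These are descriptions, over bins of the same libraries whose base composition was not compared. On the chromosome 16 end, which holds Rbfox1 and Crebbp, rho was between 0.749 and 0.776. On the chromosome 14 end it was between 0.218 and 0.316 over 488 bins, and on the chromosome 7 end between 0.227 and 0.288. Pearson's r between the DDD-seq libraries was 0.307 in the ends but 0.709 without chromosome 14, where the rest of the autosomes had 0.733.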

How the data were processed

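Per the labels, genomic DNA of mouse cerebellum was profiled by DDD-seq and ACE-seq. The authors' deposited table gives a fraction for each library and 10 kb bin, and the fraction was multiplied by 100. Per the submitters' processing notes, FastQC, Trimmomatic, Bismark and hg19 were used. The bins carry mouse chromosome names and were set against a RefSeq gene table of GRCm38.p6, without its scaffold rows. Contexts, averaging and coverage filters are not given in the sources used here, and depth is unknown. The ACE-seq library shares its protocol text with DDD-seq.

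A bin counted as genic from 1 bp of overlap with a protein-coding gene. A gene's level was the mean over its bins. Members, lists and families were chosen with earlier results of these data known. Named were the 15 highest and 10 lowest genes of at least 5 bins in the DDD-seq control, the 5 largest differences each way, and listed genes. The design planned no test, since each group has 1 library. On simulated data, differences of 0.3 points added to 6 of 19 ends were recovered within 0.0803 points. The simulated bins were drawn independently from values below 20%, without runs of zeros, so this checked only the calculation. The error of 0.0803 points was the largest among the 19 single ends. The differences of -0.0611, -0.0711 and -0.0737 points were pooled over all ends, and no error was simulated for them. Alternatives covered the 8 Mb limit (6 or 10 Mb), the first 500 kb, genic or intergenic bins, zeros, missing values, bins above 20%, the median, equal weights and each chromosome left out. Scripts ran under Python 3.11.15 with pandas 2.3.3, numpy 2.4.6, matplotlib 3.10.9 and scipy 1.17.1.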

Additional observations from a re-analysis of the deposited data

How the results depend on the processing

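No paired analysis was possible because each group holds 1 library. With no replicates, a level or difference was taken to have moved when it changed by more than the SD over 19 chromosomes. A share moved when it left its 95% exact (Clopper-Pearson) interval over bins, which covers counting of bins only. Counts of chromosomes were judged by their ratio to the main count, so that 9 against 12 chromosomes (sleep-deprived, genic bins) counted as kept. Of 149 alternative values, 120 kept their sign and stayed within these margins. The SD is larger than the level differences themselves, so for these little besides a change of sign could register, and over intergenic bins they were -0.122, -0.102 and -0.111 points. Over genic bins only, the proximal minus rest level became 0.0506 (DDD-seq control) and 0.00646 points (ACE-seq control), and the chromosomes with a lower end numbered 7 in both; without chromosome 14 as well, the genic difference was 0.0418, 0.0422 and 0.0497 points. The sleep-deprived minus control difference of -0.00395 was -0.0525 over genic bins and -0.0160 below 6 Mb, and became 0.0330 over intergenic bins, 0.00362 without zeros, 0.0120 without bins above 20% and 0.0066 by the median, and with each chromosome left out it ranged from -0.00888 to 0.0142. Leaving out chromosome 14, in each case a choice made after seeing the data, gave 0.0142. The share of zeros without chromosome 14 was 0.683%, 0.358% and 0.728%, also the lowest with any chromosome left out, and the highest were 1.88%, 1.38% and 1.95%. Below 6 Mb it was 2.11%, 1.75% and 2.27%, and over genic bins 1.52% (DDD-seq control) and 1.47% (ACE-seq control). The share without a value fell to 0.0224% (DDD-seq control) and 0% (sleep-deprived) without chromosome 14, with highest values of 0.0896% and 0.0336% with a chromosome left out, and to 0% over intergenic bins (sleep-deprived). For genic and intergenic bins the set of bins itself changed; otherwise the cause was not tested. Unknown depth limits every 0 and every high single bin.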
